A study of Mus musculus with 2 samples.

Results

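The genes described here are the 4 members of the Id family, Id1, Id2, Id3 and Id4, together with Bambi and Sostdc1, 2 genes whose products modulate bone morphogenetic protein (BMP) signalling. They are 6 of the 30905 genes listed in the count matrices, and each symbol matched 1 gene in both matrices. They were chosen by their measured levels in these same libraries, across genotypes and cell classes, so the differences between libraries and between cell classes given below are descriptions, with no test. Single-cell RNA sequencing had been carried out on mouse retinas at postnatal day 7. One library (genotype label Ctrl, here control) came from a pool of 2 control retinas and the other (genotype label Mettl3-conditional knockout, here Mettl3-CKO) from a pool of 2 mutant retinas, Six3-Cre positive with both Mettl3 alleles floxed, and all 4 retinas were from the same litter. Six3-Cre acts in retinal progenitor cells, and the study describes the deletion as efficient in the central retina, so that cells of the peripheral retina in the same pool may have kept Mettl3. METTL3 is the methyltransferase that places N6-methyladenosine (m6A) on mRNA, and the comparison asks how loss of this mark changes late retinal development.

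Id proteins are helix-loop-helix proteins that lack the basic region needed to bind DNA. They pair with E proteins, the common partners of proneural and other basic helix-loop-helix (bHLH) factors, and thereby hold back differentiation programmes. BMP signalling through receptor-activated SMADs is a well-known inducer of Id1, Id2 and Id3. Bambi encodes a transmembrane pseudoreceptor that resembles a type I receptor but has no kinase domain and dampens BMP and TGF-β signalling, while Sostdc1 encodes a secreted cystine-knot protein that binds BMPs and also acts on Wnt signalling through LRP co-receptors.

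Because the libraries differ in the m6A writer, the transcripts of the 6 genes were searched for GGACT, a common core of the sequence that the enzyme methylates. The search used the principal GENCODE vM21 transcript of each gene, on the transcript strand only, and a match says only that the letters are present. Over 21894 principal protein-coding transcripts, 86.5% held at least 1 GGACT, with a median of 3 matches per transcript and 1.02 per kilobase. The transcript of Id1 (934 bases) held 3 matches or 3.21 per kilobase, that of Id2 (1270 bases) held 4 or 3.15 per kilobase, and that of Id3 (1278 bases) held 3 or 2.35 per kilobase. The longer Id4 transcript (3849 bases) held 3 matches or 0.779 per kilobase, Bambi (5074 bases) 10 or 1.97 per kilobase, and Sostdc1 (1781 bases) 3 or 1.68 per kilobase. By density, Id1 lay above 97.9% and Id4 above 36.5% of all principal transcripts. The match closest to the stop codon is shown for 5 of the 6 genes, with 10 bases on either side. Sequences read 5′ to 3′ on the transcript strand, with GGACT in capitals. All 5 lie in the 3′ UTR. For Bambi no sequence is printed, and its match closest to the stop codon lies in the coding region.
Id1, chr2:152737027-152737051, plus strand, 26 bases after the stop codon: gggaccagatGGACTccagcccttc
Id2, chr12:25094554-25095312, minus strand, 18 bases after the stop codon and across a splice junction: tggcatttggGGACTtttttttttc
Id3, chr4:136144907-136144931, plus strand, 63 bases after the stop codon: tgggaccctgGGACTctgggaccct
Id4, chr13:48264805-48264829, plus strand, 1884 bases after the stop codon: tagacccaagGGACTttttatgaag
Sostdc1, chr12:36317442-36317466, plus strand, 7 bases after the stop codon: agctagacctGGACTgactagaaag
Positions are those of the GRCm38 build, the build to which the reads had been aligned. The genes themselves span chr2:152736251-152737410 (Id1), chr12:25093799-25097140 (Id2), chr4:136143497-136145755 (Id3), chr13:48261228-48266026 (Id4) and chr12:36314139-36318452 (Sostdc1). Id4 overlaps 2 annotated genes on the opposite strand, A330033J07Rik and Gm49291, and as the strand setting of the counting is not given in the sources used here, its UMIs could include theirs. The other 5 genes overlap no annotated gene.

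The matrices ended early as read here, so only 3994 of 5995 control barcodes and 3109 of 6992 mutant barcodes could be analysed. Analysed control cells had a median of 4520.5 unique molecular identifiers (UMIs, 1 per captured transcript), and analysed mutant cells had a median of 5207. Cell numbers given below count these cells only and do not show the full make-up of either library. Only 5 barcodes were shared between the analysed cells of the libraries. Mettl3 itself stood at 39.5 UMIs per 1000000 in control cells and 33.1 in Mettl3-CKO cells, a ratio of 0.837 (95% interval 0.754 to 0.928). In progenitor-like cells it was at 31.1 and 20.4 UMIs per 1000000, a ratio of 0.656 (0.442 to 0.977). In Müller-like cells the ratio was 0.916 (0.672 to 1.24). The libraries read the 3′ end of transcripts and the deleted exons are not given in the sources used here, so this level does not check the genotype. The libraries also differed in Xist, the transcript of the inactive X chromosome in female cells: among cells of at least 4000 UMIs, Xist was seen in 64.5% of the Mettl3-CKO but in 0.899% of the control cells. Genotype, library and this difference cannot be told apart for cells with Xist, and values for Mettl3-CKO cells without Xist are therefore given for Müller-like cells and beside some of the results in other classes.

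Cells were assigned to classes by the UMIs of marker genes, none of them among the 6 genes described, and each class is a range of a marker score, not a separately defined cell type. Progenitor-like cells, from S-phase and G2/M genes, numbered 197 in the control and 314 in the other library, and Müller-like cells 409 and 279. Neurogenic-like cells numbered 196 and 219, rod and bipolar precursor-like cells 925 and 853, rod-like cells 1421 and 850, cone-like cells 103 and 92, amacrine-like cells 41 and 32, and microglia-like cells 35 and 30. Bipolar-like, vascular-like, astrocyte-like and retinal pigment epithelium (RPE)-like cells were too few in at least 1 library for a comparison between libraries. Within 0.05 of the score limit lay 37 of the Müller-like and 8 of the progenitor-like cells. Levels are UMIs of a gene per 1000000 UMIs of the class (CPM). With 1 library per genotype there was no replicate, and all 95% intervals cover counting error only.

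The Id genes were high in dividing and glial cells and low in differentiating photoreceptors. Among the 8 classes with at least 30 cells in both libraries, Id3 was highest in Müller-like cells of the control (1292 CPM, 1252 to 1333), followed by progenitor-like (607 CPM) and neurogenic-like cells (177 CPM), against 17.5 CPM in rod-like cells. The Müller-like level of Id3 was 2.13 times that of progenitor-like cells in the control (1.98 to 2.28) and 1.81 times in the Mettl3-CKO library (1.69 to 1.93). Id1 had the opposite order, with 848 CPM in progenitor-like and 654 CPM in Müller-like control cells. Its ratio of Müller-like to progenitor-like level was 0.771 (0.720 to 0.827) in the control and 0.560 (0.519 to 0.604) in the Mettl3-CKO library. Id2 and Id4 stood at similar levels in both classes: the same ratio in the control was 0.916 (0.822 to 1.02) for Id2 and 0.912 (0.708 to 1.18) for Id4, and both intervals include 1. From progenitor-like to neurogenic-like control cells, Id1 was 2.76 times, Id2 3.72 times, Id3 3.44 times and Id4 7.70 times lower.

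**Figure D1:**
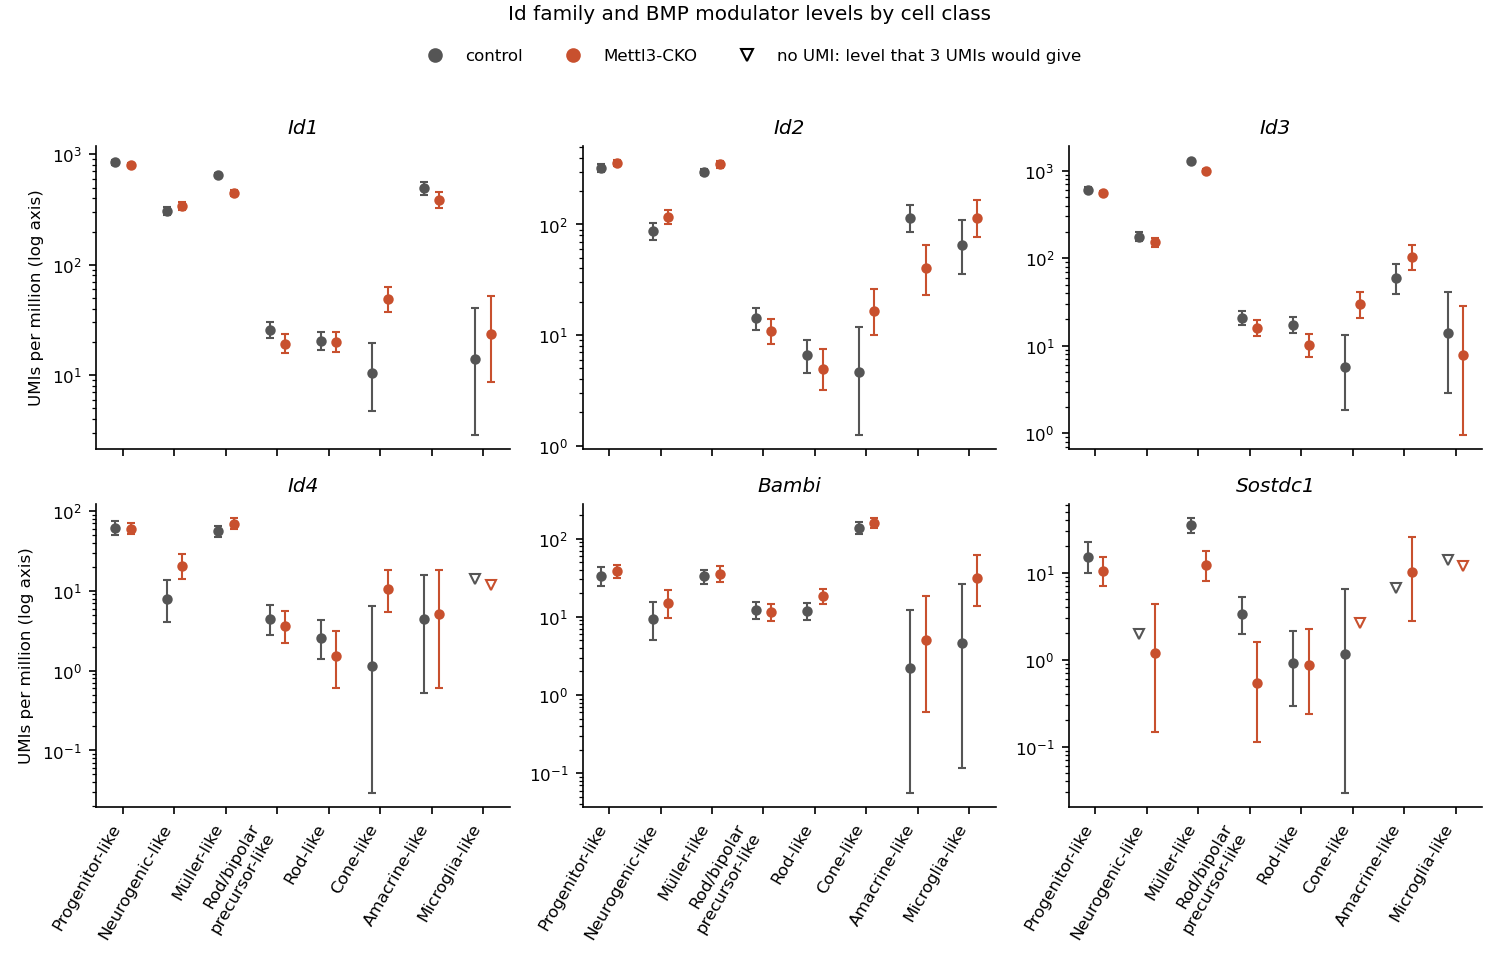
Levels of the 6 genes in CPM (log axes) in 8 cell classes of the control (grey) and Mettl3-CKO (red) libraries, 1 library each. Points are summed UMIs with exact Poisson 95% intervals, and open triangles mark classes with no UMI at the level that 3 UMIs would give. The Id genes are high in progenitor-like and Müller-like cells, Bambi in cone-like cells, and Sostdc1 in Müller-like cells of the control.

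In cells with few transcripts, free RNA can place a UMI in a cell that does not express the gene, so the share of cells with a UMI was read against rod-like cells after every cell had been thinned to 1000 UMIs. Of thinned Müller-like cells, 35.8% of control and 25.0% of Mettl3-CKO cells held Id1, against 1.96% and 2.11% of rod-like cells. For Id3 the shares were 58.8% and 47.3% in Müller-like cells, and 1.58% and 1.37% in rod-like cells. Before thinning, 65.5% of control and 62.0% of Mettl3-CKO Müller-like cells held Id1, and 83.9% and 81.7% held Id3. Median depths were 7913 and 7987 UMIs in Müller-like, and 4037 and 4382 UMIs in rod-like cells. Single cells often held more than 1 Id gene. After thinning, at least 2 of the 4 were found in 34.0% of control (29.2 to 39.0) and 29.2% of Mettl3-CKO Müller-like cells (23.8 to 35.1), and in 28.2% and 24.8% of progenitor-like cells. In neurogenic-like cells these shares were 5.82% and 6.60%, and in rod-like cells 0 of 1326 control cells, which allows a share of up to 0.226% if 3 counts are taken as the limit that a count of 0 allows, and 1 of 804 Mettl3-CKO cells. Id3 was found in 62.1% of Mettl3-CKO Müller-like cells with Id1 (49.3 to 73.8) and in 42.4% of those without it (35.4 to 49.6), while the control shares were 63.9% and 55.9%.

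In progenitor-like cells, which divide and give rise to the late-born neurons and Müller glia, none of the 6 genes was past 1.5-fold in either direction between the libraries. Of the 8709 genes with at least 50 UMIs in this class, 8.44% were past 1.5-fold higher and 2.33% past 1.5-fold lower in the Mettl3-CKO library. Id1 was at 848 CPM in control and 797 CPM in Mettl3-CKO cells, a ratio of 0.940 (0.878 to 1.01). Id2 was at 324 and 361 CPM, a ratio of 1.11 (1.002 to 1.24), and Id3 at 607 and 553 CPM, a ratio of 0.910 (0.840 to 0.986). Id4 stood at 61.1 and 60.2 CPM. The intervals of Id1 and Id4 include 1, and those of Id2 and Id3 leave it out narrowly. Bambi was at 33.0 and 38.0 CPM, with a ratio of 1.15 (0.823 to 1.63), and Sostdc1 at 15.3 and 10.4 CPM from 25 and 29 UMIs, with a ratio of 0.681 (0.385 to 1.21). This ratio lay close to the 1.5-fold limit and was past it in cells of at least 4000 UMIs without Xist (0.486, from 8 Mettl3-CKO UMIs), with median-of-ratios scaling (0.657) and with the mean of single-cell CPM (0.645). The direction of Id3 depended on how cells were summed, since the mean of single-cell CPM gave a ratio of 1.12 and cells thinned to 2000 UMIs gave 1.08.

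Id3 was higher in S phase than in G2/M in both libraries. Progenitor-like cells led by S-phase markers held Id3 at 871 CPM in control and 813 CPM in Mettl3-CKO cells, against 433 and 367 CPM in cells led by G2/M markers. Id1 was at 707 CPM in S phase and 941 CPM in G2/M in the control, but at 791 and 801 CPM in the Mettl3-CKO library. The ratio between libraries for Id1 was 1.12 in S phase (0.999 to 1.25) and 0.851 in G2/M (0.782 to 0.927). These 2 intervals do not overlap, but they leave out variation between cells, and the difference between phases was not tested. For Id2, the S-phase ratio was 1.01 (0.861 to 1.18) and the G2/M ratio 1.20 (1.04 to 1.39). Id4 and Bambi showed no such pattern: Id4 lay between 58.2 and 63.0 CPM and Bambi between 32.2 and 38.1 CPM over the 4 sets of cells. Sostdc1 held 12 and 20 UMIs in S phase and 13 and 9 UMIs in G2/M, too few to separate the phases.

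Müller-like cells showed a larger contrast, and its direction differed within the family. Id1 was at 654 CPM in control and 446 CPM in Mettl3-CKO cells, a ratio of 0.682 (0.631 to 0.736) from 1997 and 987 UMIs. Id3 was at 1292 and 999 CPM, a ratio of 0.773 (0.733 to 0.814) from 3945 and 2210 UMIs. Id2 went the other way, with 297 and 351 CPM and a ratio of 1.18 (1.07 to 1.30) from 906 and 777 UMIs, although a stricter class score of at least 0.5 gave 0.909. Id4 was at 55.7 and 69.6 CPM, with a ratio of 1.25 whose interval (0.998 to 1.56) includes 1. These sums did not rest on a few cells, as the 5 cells with most UMIs held 9.66% of the Id1 UMIs in control and 16.9% in Mettl3-CKO cells, and for Id3 7.55% and 11.9%.

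Sostdc1 had the lowest ratio of the 6 in Müller-like cells. It was at 35.1 CPM in the control, 107 UMIs in 54 of 409 cells, and at 12.2 CPM in the Mettl3-CKO library, 27 UMIs in 21 of 279 cells, a ratio of 0.348 (0.219 to 0.535). No single cell held more than 8 of these UMIs in the control or 2 in the Mettl3-CKO library. Rod-like cells held it at 0.909 and 0.867 CPM. Sostdc1 was therefore 1 of the 6 genes past 1.5-fold lower in Müller-like cells, where 3.56% of the 9179 genes with at least 50 UMIs were past that limit, and none of the 6 was past 1.5-fold higher, where 9.49% of all these genes were. Id1 lay close to the limit. It was past it with median-of-ratios scaling (0.655), class scores of at least 0.5 (0.664) and 0.15 (0.653), and in cells with Xist (0.652). Id4 was past 1.5-fold higher with the mean of single-cell CPM (1.59). Bambi was at 32.8 and 35.3 CPM, with a ratio of 1.08 (0.790 to 1.46).

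**Figure D2:**
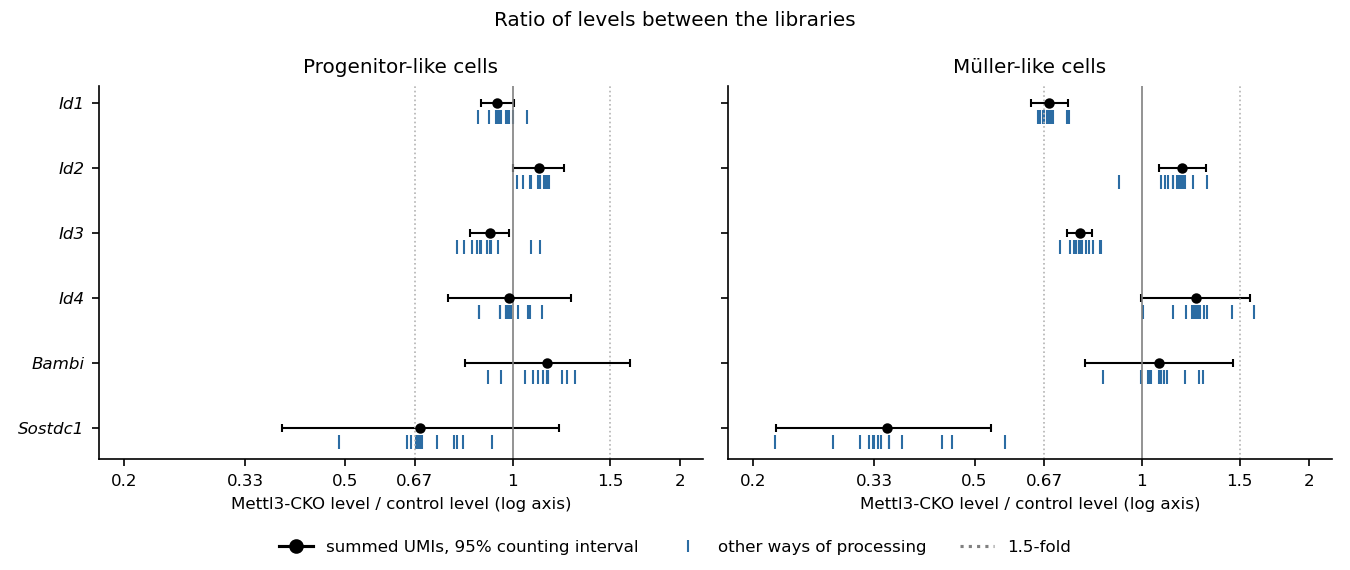
Mettl3-CKO level divided by control level (log axis) of each gene in progenitor-like and Müller-like cells. Black points are summed UMIs with exact conditional 95% intervals for counting error, blue ticks are the values under other ways of processing, and dotted lines mark 1.5-fold. In Müller-like cells Id1 (0.682), Id3 (0.773) and Sostdc1 (0.348) lie below 1 under every alternative run, whereas Id2 has 1 alternative below 1 (0.909).

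The Müller-like cells of the libraries were not alike in other respects. The summed level of the 10 Müller markers was 7513 CPM in control and 6058 CPM in Mettl3-CKO cells, with 5 of 10 markers higher in the latter. The 10 rod markers were at 394 and 878 CPM (7 of 10 higher in Mettl3-CKO), the 11 S-phase markers at 270 and 337 CPM (10 of 11 higher) and the 10 G2/M markers at 75.7 and 156 CPM (10 of 10 higher). Astrocyte markers were at 13.8 and 7.23 CPM, vascular markers at 708 and 711 CPM with Cdh5 and Kcnj8 at 0, and microglia markers at 1.64 and 6.33 CPM. RPE markers were at 3.28 and 2.71 CPM, with Rpe65 and Tyrp1 at 0 in both libraries. The part of these differences in the levels of the 6 genes was not tested. The comparison given next divides the cells by Müller marker level only, so Müller marker levels can still differ within a division. Rod, S-phase and G2/M markers were not taken into account there.

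When the Müller-like cells were divided at the tertiles of the control cells' Müller marker level, 49.5% of the Mettl3-CKO cells fell into the lowest tertile, 37.3% into the middle and 13.3% into the highest. Id1 was lower in the Mettl3-CKO library in all 3: 503 and 421 CPM in the lowest tertile, 664 and 445 CPM in the middle, and 763 and 550 CPM in the highest, with ratios of 0.836 (0.732 to 0.956), 0.670 (0.590 to 0.760) and 0.721 (0.602 to 0.858). Sostdc1 climbed with the Müller marker level in both libraries, from 14.0 to 39.8 to 46.9 CPM in the control and from 5.50 to 15.4 to 29.1 CPM in the Mettl3-CKO library. Its ratios were 0.393, 0.386 and 0.621, and the interval left out 1 in the middle tertile alone (0.191 to 0.730). Id3 was lower in the lowest tertile (ratio 0.819, 0.750 to 0.894) and the middle tertile (0.654, 0.599 to 0.713) but not in the highest, where 1278 and 1413 CPM gave a ratio of 1.11 (0.985 to 1.24).

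For Id2 the interval left out 1 in the lowest tertile and included it in the other two. In the lowest tertile it was at 211 CPM in control and 404 CPM in Mettl3-CKO cells, a ratio of 1.92 (1.61 to 2.29), and the ratio was 0.950 (0.806 to 1.12) in the middle and 0.849 (0.659 to 1.08) in the highest tertile. The order of the tertiles was thus reversed for Id2, with the level climbing from 211 to 343 CPM in control and going from 404 down to 291 CPM in Mettl3-CKO cells. Id4 had ratios of 1.32 (0.921 to 1.92), 0.826 (0.550 to 1.23) and 2.06 (1.24 to 3.33), the last from 52 and 27 UMIs. For Bambi the 3 intervals all include 1, with 15 to 44 UMIs per tertile and library.

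**Figure D3:**
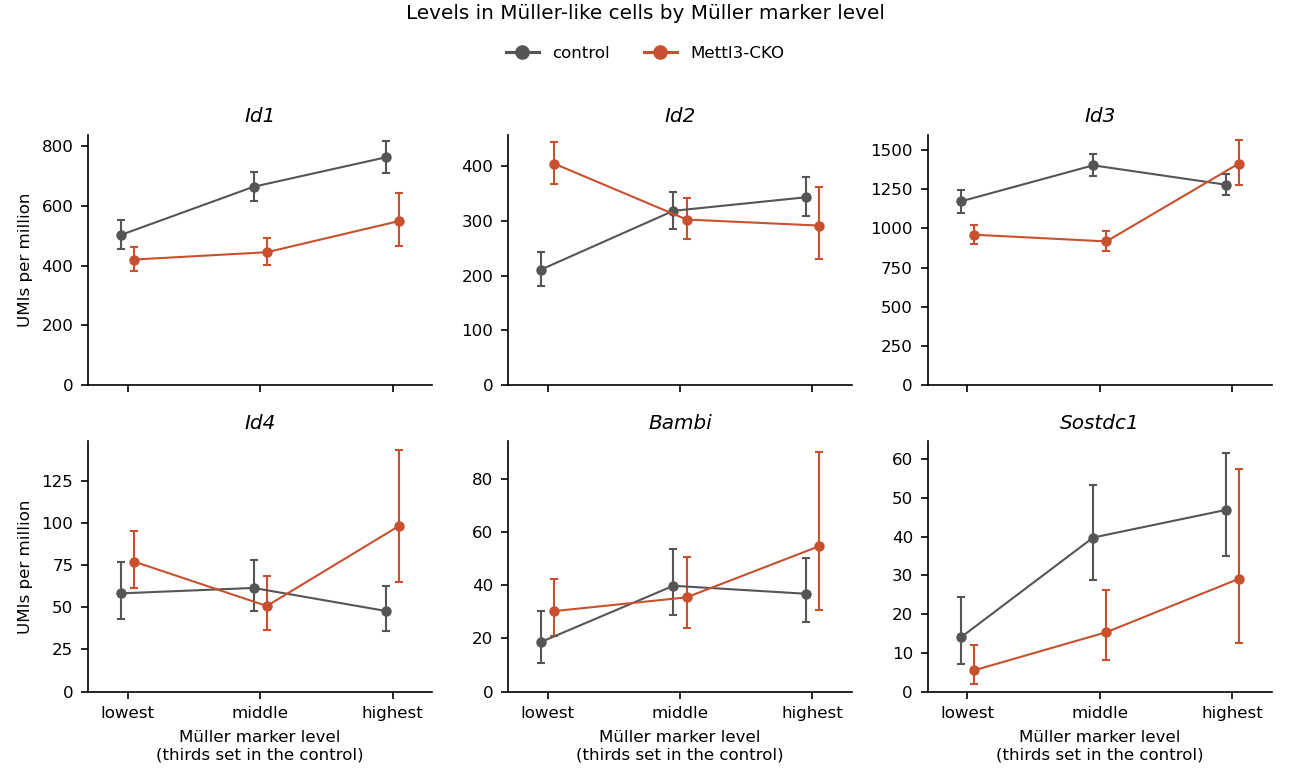
Levels of the 6 genes (CPM, linear axes from 0) in Müller-like cells of the lowest, middle and highest tertile of the summed Müller marker level, with limits set in the control. Points are summed UMIs of the control (grey) and Mettl3-CKO (red) libraries with Poisson 95% intervals. Id1 and Sostdc1 lie lower in the Mettl3-CKO library in each tertile, and Id2 is higher in the lowest tertile (404 against 211).

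Separating the Mettl3-CKO Müller-like cells of at least 4000 UMIs by Xist gave 92 cells without and 132 cells with it, beside 295 control cells. Id1 was at 683 CPM in the control, 463 CPM without Xist and 445 CPM with Xist, so both sets of Mettl3-CKO cells lay below the control and their intervals overlapped each other. Id3 was at 1328, 1085 and 945 CPM, with both Mettl3-CKO sets below the control and the cells with Xist lower than those without. Sostdc1 was at 35.9 (29.3 to 43.5), 20.4 (11.9 to 32.6) and 7.85 CPM (3.76 to 14.4), from 103, 17 and 10 UMIs. Its interval in the cells without Xist overlapped that of the control and that of the cells with Xist. The ratio of Sostdc1 to the control was 0.568 for the cells without Xist and 0.219 for the cells with Xist. Id4 was at 58.5 CPM in the control and 58.8 CPM with Xist, but at 85.1 CPM without it (66.5 to 107). Id2 was at 310, 382 and 336 CPM.

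**Figure D4:**
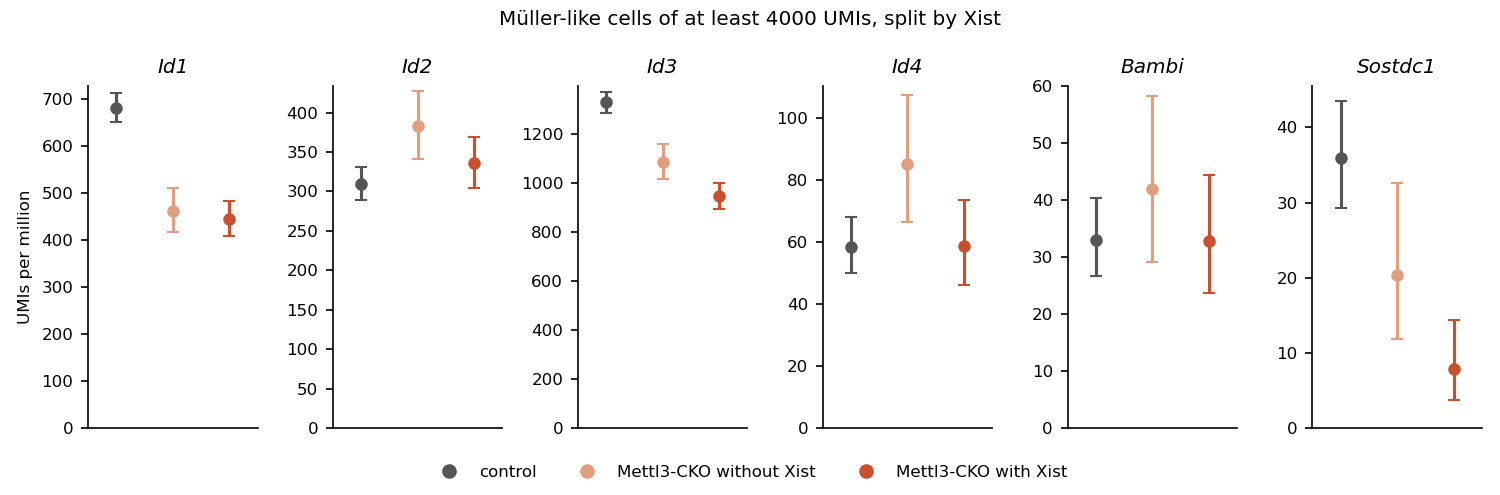
Levels of the 6 genes (CPM, linear axes from 0) in Müller-like cells of at least 4000 UMIs: 295 control cells, 92 Mettl3-CKO cells without Xist and 132 with Xist, with Poisson 95% intervals. Id1 and Id3 lie below the control in both sets of Mettl3-CKO cells (463 and 445 against 683 for Id1), and Sostdc1 is lowest in the cells with Xist.

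Among neurogenic-like cells, the cells that have begun to express proneural factors and Notch ligands, Id2 was at 87.3 and 116 CPM, a ratio of 1.33 (1.06 to 1.68), and Id4 at 7.93 and 20.5 CPM, a ratio of 2.59 (1.31 to 5.49) from 12 and 34 UMIs. Id1 (307 and 338 CPM) and Id3 (177 and 152 CPM) had intervals that include 1. For Id2 the ratio was 1.79 in cells without Xist and 0.954 in cells with Xist, 1.03 at a class score of at least 0.5, 1.92 with cells of a strong second class left out and 2.38 after thinning to 2000 UMIs. For Id4 it was 1.27 with cells of a strong second class left out and 1.40 with the mean of single-cell CPM, and 202 of the neurogenic-like cells had such a second class. Of the 34 Id4 UMIs, 8 came from 1 cell. In rod and bipolar precursor-like cells the Id genes lay between 3.61 and 25.8 CPM in either library. Id3 was at 17.5 and 10.2 CPM in rod-like cells, a ratio of 0.584 (0.403 to 0.836), which with a UMI in 71 of 1421 and 38 of 850 cells is near the level at which free RNA cannot be told from expression.

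Bambi had its own distribution. Cone-like cells held it at 138 CPM in the control (115 to 165) and 158 CPM in the Mettl3-CKO library (136 to 183), in 41.7% and 53.3% of cells. This level was 11.7 times that of rod-like cells in the control (8.58 to 16.1) and 8.68 times in the Mettl3-CKO library (6.67 to 11.4), and 4.22 and 4.49 times that of Müller-like cells. The median depth of cone-like cells was 8149 and 11093 UMIs. After thinning to 1000 UMIs, 8.08% and 12.1% of cone-like cells held Bambi, against 0.980% and 1.62% of rod-like cells. The ratio between libraries in cone-like cells was 1.14 (0.903 to 1.45), an interval that includes 1, but 2.07 in cells of at least 4000 UMIs without Xist and 0.875 in those with Xist. In rod-like cells it was 1.54 (1.10 to 2.16), from 11.8 and 18.2 CPM, but 0.972 once cells with a strong second class were left out.

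The Id genes were low in cone-like cells of the control, where Id1 had 9 UMIs, Id2 4, Id3 5 and Id4 1. The Mettl3-CKO cone-like cells held 56 UMIs of Id1, 19 of Id2, 34 of Id3 and 12 of Id4. Of these, 5 cells held 83.9% of the Id1 UMIs and 1 cell held 61.8% of the Id3 UMIs, so the ratios of 4.72 for Id1 and 5.15 for Id3 rest on a few cells. Over the alternatives they ranged from 1.55 to 9.13 for Id1 and from 2.33 to 21.0 for Id3, with both upper ends in cells without Xist. In amacrine-like cells, Id1 was at 492 CPM in control and 387 CPM in Mettl3-CKO cells, with 54.0% and 88.9% of its UMIs in 5 cells. Id2 was at 114 and 40.4 CPM and Id3 at 59.3 and 104 CPM in this class, and in the control 1 cell held 40.4% of the Id2 UMIs. The leading genes of the amacrine-like class, among them Nhlh2 and Prdm13, included 1 of its markers only.

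Astrocyte-like and RPE-like cells also carried these genes. The 9 and 5 astrocyte-like cells held Id3 at 1846 and 2021 CPM, Id1 at 996 and 467 CPM, Id2 at 880 and 447 CPM, and Id4 at 344 and 274 CPM, the highest Id4 levels among all classes of each library. The 14 RPE-like cells of the control held Sostdc1 at 710 CPM (440 to 1085), 21 UMIs in 9 cells, and the 1 such cell of the Mettl3-CKO library held 4 UMIs. By marker score, RPE-like cells among those analysed came almost only from the control library. When cells were clustered instead, the cluster assigned to RPE held 208 control and 94 Mettl3-CKO cells. RPE markers were compared between Müller-like cells with and without Sostdc1. They were at 3.64 and 3.20 CPM in the control, from 2 and 8 UMIs. In the Mettl3-CKO library they were at 4.23 and 2.53 CPM, from 1 and 5 UMIs. The intervals overlapped in both libraries, but so few UMIs could hardly separate the sets. Carry-over of RPE RNA was not tested. Müller-like cells with Sostdc1 had a median of 10327.5 UMIs in the control, against 7604 for those without. Of the 18 Sostdc1 UMIs in control precursor-like cells, 15 came from 1 cell. With predicted doublets left out, the precursor ratio went from 0.163 to 0.944.

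The other genes of the pathway were followed in 8 lists of 86 genes, given here by the number past 1.5-fold. All genes tested had a median log2 ratio of 0.05 in progenitor-like and 0.06 in Müller-like cells, and the shares of them past 1.5-fold were 8.44% higher and 2.33% lower in progenitor-like and 9.49% higher and 3.56% lower in Müller-like cells. With 2 to 12 genes tested per list, the counts below are descriptions. Of the 11 genes listed as BMP ligands, Gdf genes among them, 2 had enough UMIs, Bmp3 and Gdf11. Bmp2, Bmp4, Bmp5, Bmp6 and Bmp7 had too few in both classes, so the list does not show how the supply of BMP ligands compared between libraries. Bmp3 was lower in the Mettl3-CKO library in Müller-like cells (25.9 and 16.3 CPM, ratio 0.629, 0.412 to 0.944) and in progenitor-like cells (ratio 0.511, 0.294 to 0.885). Gdf11, a secreted factor known to limit ganglion cell production, was higher in Müller-like cells (25.2 and 56.1 CPM, ratio 2.22, 1.66 to 2.99), and its ratio of 1.54 in progenitor-like cells had an interval that includes 1 (0.848 to 2.94). No BMP receptor was past 1.5-fold, of 6 tested in Müller-like and 5 in progenitor-like cells, with list medians of -0.07 and 0.22.

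Of the SMADs and their regulators, 3 of 10 were past 1.5-fold higher in Müller-like cells, none lower, beside 9.49% and 3.56% of all genes tested, and the list median was 0.19. Smad7, an inhibitory SMAD induced by BMP and TGF-β signals, was at 30.5 and 63.3 CPM, a ratio of 2.08 (1.59 to 2.73). Smad6, the inhibitory SMAD most selective for BMP signals, was at 6.55 and 13.6 CPM, a ratio of 2.07 (1.14 to 3.84), and Smurf2, a ubiquitin ligase of the pathway, had a ratio of 1.59 (1.11 to 2.28). The BMP effectors Smad1, Smad5 and Smad4 had ratios of 0.766, 1.02 and 1.07. In progenitor-like cells none of 9 was past 1.5-fold, and Smad7 had a ratio of 1.30 (0.999 to 1.70). Known BMP targets other than Id genes comprised 5 tested genes in Müller-like cells, of which Smad6 and Smad7 were higher and Hey1, a Notch and BMP target that encodes a bHLH repressor, was lower (44.9 and 28.9 CPM, ratio 0.645, 0.471 to 0.873). The other tested targets, Atoh8 and Tgif1, had ratios of 1.34 and 1.04 with intervals that include 1, and the list median was 0.42. Smad6 and Smad7 thus stood higher, and Id1 and Id3 lower, in Müller-like cells of the Mettl3-CKO library. Id2 stood higher there (ratio 1.18, 1.07 to 1.30), and the interval of Id4 included 1.

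Among extracellular BMP inhibitors and binders, 7 were tested in each class, of which 1 was past 1.5-fold lower in Müller-like cells and 1 in each direction in progenitor-like cells. Nbl1, a secreted BMP antagonist, was lower in Müller-like cells (15.1 and 7.68 CPM, ratio 0.510, 0.274 to 0.907), and Crim1, a membrane protein that binds BMPs, was higher in progenitor-like cells (8.55 and 24.4 CPM, ratio 2.85, 1.59 to 5.49). Nbl1 had a ratio of 0.609 in progenitor-like cells, with an interval that includes 1 (0.346 to 1.07). Of the E proteins, the binding partners of Id proteins, none of 3 was past 1.5-fold in either class. Tcf4 was at 1767 CPM in Müller-like cells of both libraries, and Tcf12 and Tcf3 had ratios of 0.953 and 0.826. Of 8 bHLH repressors and activators, Neurod1, a factor of photoreceptor and amacrine differentiation, was higher in both classes, with a ratio of 2.04 (1.78 to 2.34) in Müller-like and 2.13 (1.77 to 2.57) in progenitor-like cells. The summed level of the 10 rod markers was higher in progenitor-like cells as well, at 164 and 371 CPM, with 9 of the 10 higher. Hes5, a Notch effector, had a ratio of 0.803 (0.777 to 0.830) in Müller-like cells, and Hes1 one of 1.13.

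Sostdc1 also acts on the Wnt pathway, of which 12 of 21 listed genes could be tested in Müller-like cells, with 2 past 1.5-fold higher and 3 lower. The secreted inhibitor Sfrp2 (35.4 and 21.2 CPM, ratio 0.600, 0.417 to 0.853), the intracellular inhibitor Nkd1 (83.5 and 54.7 CPM, ratio 0.655, 0.523 to 0.816) and the transcriptional repressor Tcf7l1 (ratio 0.642, 0.444 to 0.916) were lower in the Mettl3-CKO library. The co-receptor Lrp5 was higher (ratio 1.63, 1.04 to 2.56), and Lrp4, a co-receptor that binds Sostdc1, had a ratio of 1.65 with an interval that includes 1 (0.994 to 2.74). The list median was -0.21. In progenitor-like cells Axin1 (ratio 1.65, 1.09 to 2.56) and Znrf3 (1.83, 1.03 to 3.45) were higher, and none of the 11 Wnt genes tested there was past 1.5-fold lower.

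**Figure D5:**
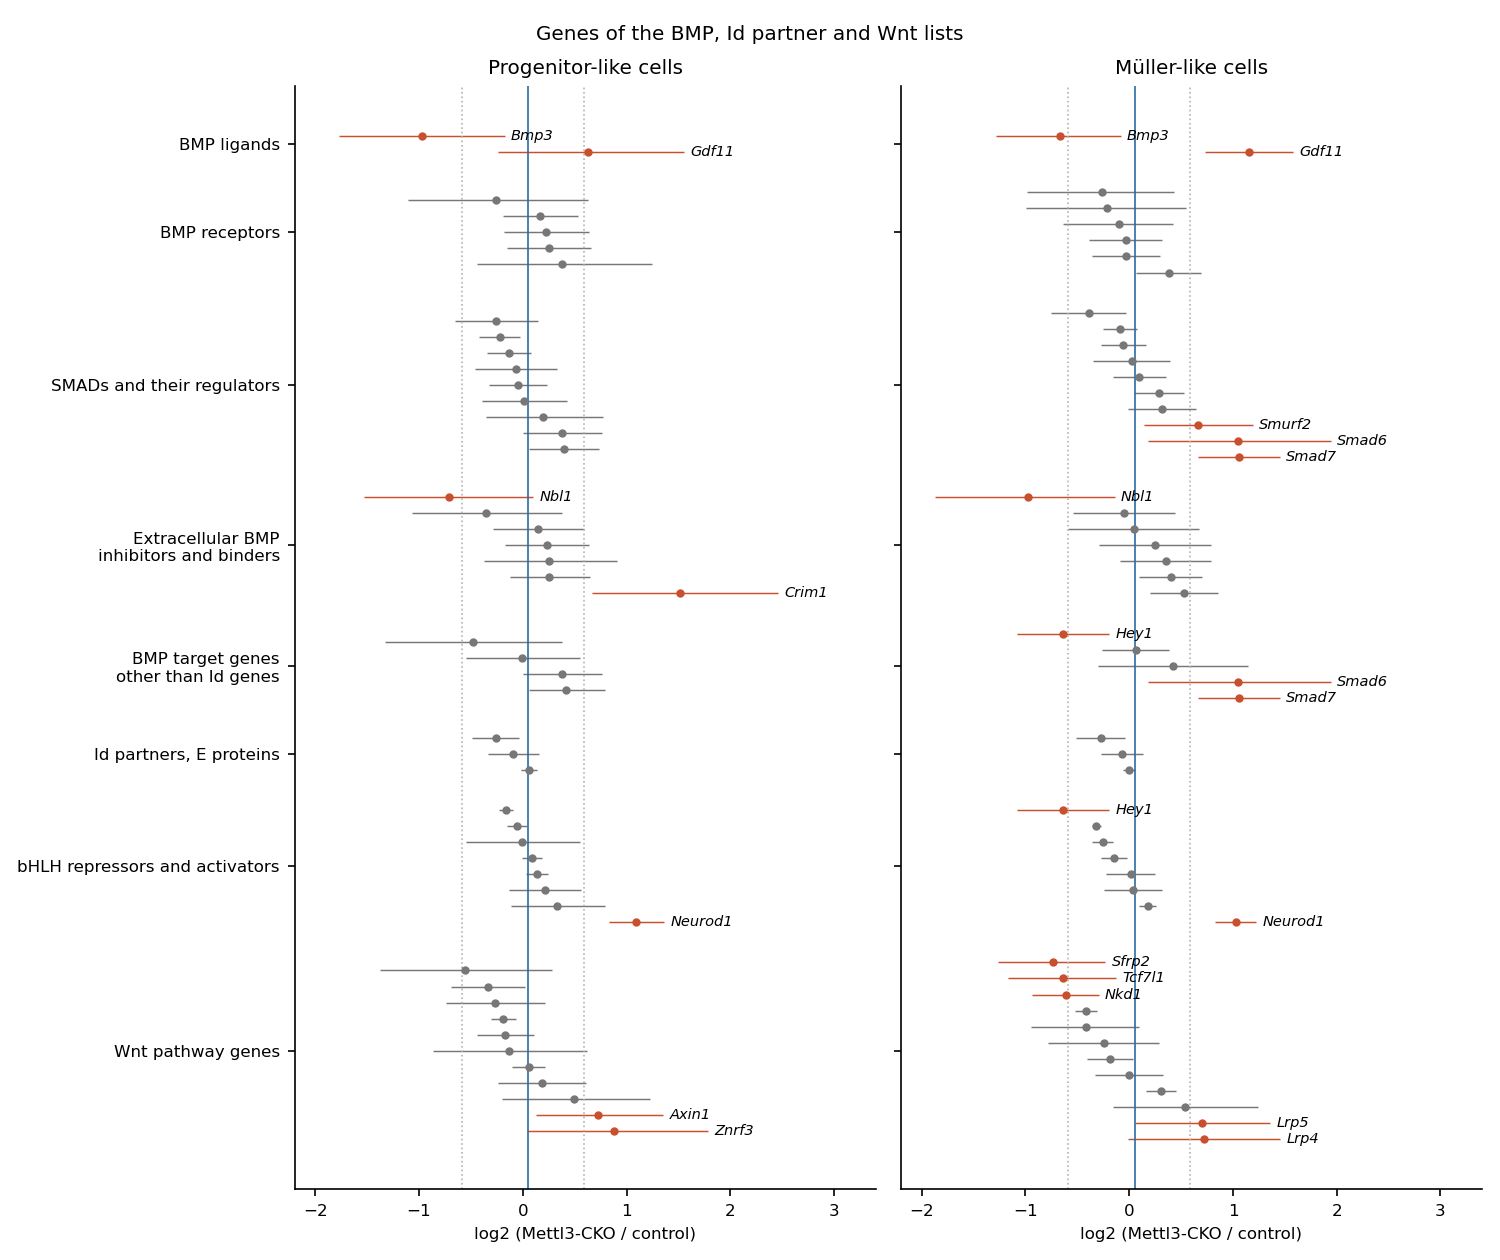
Log2 ratio of the Mettl3-CKO to the control level for each gene with at least 50 UMIs in the class, by list, in progenitor-like and Müller-like cells. Lines are 95% intervals for counting error, red marks genes past 1.5-fold (dotted lines), and the blue line is the median of all genes tested. Smad6 and Smad7 lie near 1.05 in Müller-like cells, and none of the E proteins is past a dotted line, while Smad6, Smad7 and Hey1 appear in 2 lists each.

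Over the 16 sums of 8 classes and 2 libraries, the log2 levels of Id1 and Id3 had a Pearson correlation of 0.92 and those of Id3 and Id4 of 0.93, whereas Bambi had correlations between -0.11 and 0.27 with the other 5. Among 10282 genes ranked by the same measure, the patterns most like each gene were those of Adam12, Lrrtm1 and Bcl2 for Id1 (0.97, 0.97 and 0.96) and Zfp36l1, Abcg2 and Rnf7 for Id2 (0.97, 0.95 and 0.95). Id3 was most like Dapl1, Kit and Megf10 (0.98, 0.97 and 0.97) and Id4 most like Col23a1, Hey2 and Irx5 (0.98, 0.96 and 0.96). The closest patterns were less close for Bambi, with Ccdc167 and Eif3b (0.89 and 0.85), and for Sostdc1, with Lage3, Rgcc and Gucy1a1 (0.89, 0.88 and 0.88). The 16 sums share libraries, depth and cell classes, so these values describe these classes only.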

How the data were processed

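Retinas had been dissociated with papain and captured with a 3′ droplet kit. The authors aligned the reads to the mouse genome (mm10, which is GRCm38) with Cell Ranger 3.1.0, and the submitters' processing notes also name Seurat 3.1. The deposited values are raw UMI counts per gene and cell, not normalized. As read here, the matrices ended early: 3994 of 5995 control barcodes and 3109 of 6992 mutant barcodes could be used, and the rest were not analysed here. The filter stated by the study (over 200 genes, under 20% mitochondrial UMIs) would have removed 237 control and 86 mutant cells, which were kept. Mitochondrial UMIs (5.53% and 4.19%) were left out of totals.

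Each cell took the class with the highest summed marker level, scaled to the 99th percentile of that list, if it reached 0.25 and 3 markers were seen. Counts were summed per class and library. Levels carry exact Poisson, ratios exact conditional binomial and shares exact (Clopper-Pearson) intervals at 95%. The ratio calculations were tested on simulated Poisson counts only, which lack the variation between cells and between libraries of real data. No p-value was computed. Doublets were predicted with Scrublet in scanpy 1.11.5 (61 control cells, 1.53%, and 6 Mettl3-CKO cells, 0.193%) and left out only in an alternative. Other tools were Python 3.11.15, numpy 2.4.6, scipy 1.17.1, pandas 2.3.3 and leidenalg 0.10.2. Alternatives covered the class limit, Leiden classes, thinning, scaling, doublets, filters and Xist.

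The 6 genes and all lists were chosen with earlier results of these data known. Beyond them, the text names the 3 genes most correlated with each over classes and libraries (at least 200 UMIs, no predicted, mitochondrial or marker gene; 1 such gene is not reported here), and list genes past 1.5-fold whose interval leaves out 1. Other list genes were named after their values were seen. Positions and transcripts came from GENCODE vM21.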

Additional observations from a re-analysis of the deposited data

Results flagged for a closer look

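The ratio of the Mettl3-CKO to the control level went in opposite directions in different classes for 3 of the Id genes, with counting intervals that leave out 1 on both sides. The difference between classes was not tested, as each genotype had 1 library. Id1 had a ratio of 4.72 in cone-like cells, but 0.682 in Müller-like, 0.750 in rod and bipolar precursor-like and 0.786 in amacrine-like cells. Id2 had ratios of 1.11 in progenitor-like, 1.33 in neurogenic-like, 1.18 in Müller-like and 3.60 in cone-like cells, but 0.354 in amacrine-like cells. Id3 had ratios of 5.15 in cone-like and 1.75 in amacrine-like cells, but 0.910 in progenitor-like, 0.773 in Müller-like and 0.584 in rod-like cells. The cone-like and amacrine-like values rest on a few cells each.

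Cells that met no class were not used in the comparisons, and there Id2 had a ratio of 2.85 (56 and 138 UMIs), Id3 one of 2.18 (177 and 333 UMIs) and Id4 one of 2.32 (13 and 26 UMIs), above the control level. These 565 control and 416 Mettl3-CKO cells had median depths of 1143 and 1082.5 UMIs.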

How the results depend on the processing

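With 1 library per genotype no replicate was left out. In Müller-like cells the ratios of Id1, Id3, Id4 and Sostdc1 kept their direction under all 14 alternatives, that of Id2 under 13 of 14 and that of Bambi under 12 of 14. In progenitor-like cells Id2 and Sostdc1 kept theirs under all 13, Id1, Id3 and Bambi under 11 of 13. Id4, with a ratio near 1 there, kept its direction under 9 of 13. Cells without Xist gave 0.867 for Id1 in progenitor-like cells, 0.817 for Id3 and 0.568 for Sostdc1 in Müller-like cells, 1.20 for Id1 in precursor-like and 0.197 for Id3 in amacrine-like cells. Cells with Xist gave 0.712 for Id3 and 0.219 for Sostdc1 in Müller-like cells and 0.954 for Id2 in neurogenic-like cells. Thinning to 2000 UMIs gave 1.06 for Id1 and 1.08 for Id3 in progenitor-like cells and 1.14 for Id1 in precursor-like cells. The mean of single-cell CPM gave 1.12 for Id3 in progenitor-like cells, and 1.31 for Id2, 0.843 for Id3 and 1.59 for Id4 in Müller-like cells. The mean over the tertile groups of Müller marker level gave 0.739 for Id1 and 0.840 for Id3. A class score of at least 0.5 gave 0.909 for Id2 in Müller-like cells. Leaving out cells with a strong second class gave 0.793 for Id3 in progenitor-like and 0.972 for Bambi in rod-like cells. Leiden classes gave 0.817 for Id3 in progenitor-like, 1.07 for Id1 in precursor-like and 1.12 for Id2 in amacrine-like cells. The cause of these changes was not tested.

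The number of genes past 1.5-fold moved with the cells and genes entered. In progenitor-like cells, 735 higher genes became 1201 with the mean of single-cell CPM, 481 without Xist, 224 after thinning and 138 among genes of at least 200 UMIs, and 203 lower genes became 630 with the mean of single-cell CPM, 114 after thinning and 38 among genes of at least 200 UMIs. In Müller-like cells, 871 higher genes became 564 at the score of 0.5, 356 after thinning and 193 among genes of at least 200 UMIs, and 327 lower genes became 580 with the mean of single-cell CPM, 510 without Xist and 105 among genes of at least 200 UMIs.

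No paired analysis was possible because each genotype had 1 library. With 1 library each, litter mates, capture and genotype cannot be told apart. Levels under about 3 UMIs per class were not detectable at this depth.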

Other observations

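Several small classes carried the same genes at levels worth recording as values only. Microglia-like cells, the immune cells of the retina, held Id2 at 65.2 CPM in 35 control cells and 115 CPM in 30 Mettl3-CKO cells (14 and 29 UMIs), and Bambi with 1 and 8 UMIs, a ratio of 6.82 (0.914 to 303). No UMI of Id4 or Sostdc1 was seen in microglia-like cells of either library. The 7 and 6 vascular-like cells held Id3 at 556 and 335 CPM and Bambi at 67.0 and 168 CPM, where 13 UMIs of Bambi came from 1 control cell and 13 from 4 Mettl3-CKO cells. Bipolar-like cells, 72 in the control and 12 in the other library, held Id3 with 10 UMIs and Id1 with 7 UMIs in the control, and 1 UMI of Id1 was the only one of the 6 genes among the 12 cells. RPE-like cells of the control also held Id3 at 913 CPM and Id2 at 710 CPM.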
